A study of Monodelphis domestica with 8 samples.

Results

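A small class of H3K4me3 peaks in the opossum fetal brain met both an acetylation mark of active promoters and the Polycomb mark. These co-marked peaks were chosen by overlap, as the H3K4me3 peaks on chromosomes 1 to 8 that shared at least 1 bp with an H3K9Ac peak and at least 1 bp with an H3K27me3 peak. There were 644 of them among 22086 autosomal H3K4me3 peaks, or 2.92%, in a list of 23987 peaks in all. The other autosomal peaks met H3K9Ac alone (8713), H3K27me3 alone (3003) or neither (9726). The overlaps of these 3 lists chose the peaks, so that they met the marks is no result, and values that come from the same lists are given as description, with no test.

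The study profiled 4 histone modifications by chromatin immunoprecipitation and sequencing in brain of female Monodelphis domestica, the gray short-tailed opossum, at embryonic day 13. It comprised 8 libraries, 2 for each mark, and each library came from 2 pooled sister fetuses, one pool from an LL2 mother and LL2 father and the other from an LL1 mother and LL2 father. Chromatin of each pool was cut with micrococcal nuclease and split equally among the antibodies against H3K4me3, H3K9Ac, H3K27me3 and H3K9me3. A single peak list serves both libraries of a mark, so no value has a replicate error, and exact 95% binomial intervals below cover the counting of peaks only. No read counts accompany the lists and the depth is unknown. Regions go by their position, counted from 1, in the authors' coordinates without gene names. Their assembly: not given in the sources used here.

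H3K4me3 is the trimethyl mark that accompanies promoters of active and of poised genes. H3K9Ac, an acetyl group on lysine 9 of histone H3, is laid down by acetyltransferases at active promoters, and H3K27me3 is laid down by Polycomb repressive complex 2, which holds developmental regulators silent in embryonic tissue. Promoters that carry H3K4me3 with H3K27me3 are known as bivalent. Lysine 9 and lysine 27 are different residues, so a histone tail can in principle carry both marks, unlike acetylation and methylation of lysine 27, which exclude each other. Brain tissue holds many cell types and each cell 2 copies of a chromosome, so marks of the same nucleosome, of the other copy and of other cells cannot be told apart in a peak list of pooled tissue.

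The acetyl and Polycomb peaks shared bases in most co-marked peaks. With both marks clipped to the H3K4me3 peak, 486 of 644 (75.5%, 72.0% to 78.7%) held at least 1 base under both, and 158 (24.5%) held the marks side by side. The shared stretch had a median of 724 bp (exact 95% interval of the median 683 to 750 bp, n = 486), with quartiles of 387 and 878.5 bp and a range of 2 to 3971 bp. It made up a median of 85.3% of the smaller of the 2 covers and 22.4% of the H3K4me3 peak. In 186 of the 486 (38.3%) the smaller cover lay wholly within the other. Only 51 of the 486 (10.5%) shared less than the length of DNA around a nucleosome core. When 100 bp were trimmed from both ends of each H3K9Ac and H3K27me3 peak, 67.1% of the 636 peaks that kept both marks still held shared bases. The top-scoring 50% of each list left 91 co-marked peaks, of which 74.7% held them.

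The arrangement within these peaks was mostly staggered or nested. In 300 (46.6%) the 2 marks overlapped in part and each also ran alone. In 170 (26.4%) all acetylated bases lay inside H3K27me3. The reverse, H3K27me3 wholly inside H3K9Ac, was found in 16 (2.48%). Of the 158 without a shared base, 144 had H3K27me3 on 1 side of the acetylated stretch, 12 had it on both sides, and 2 had H3K9Ac on both sides of H3K27me3. The H3K27me3 stretch stood at the lower coordinate in 75 of the 144 and at the higher in the rest, so neither direction along the chromosome prevailed. The gap between the marks had a median of 470.5 bp (383 to 517 bp, n = 158) and a range of 8 to 2772 bp. It was shorter than the nucleosomal length in 25 and longer than 1 kb in another 25. A pair that was apart inside the H3K4me3 peak could not meet outside it, because both of its peaks overlapped the H3K4me3 peak.

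**Figure D1:**
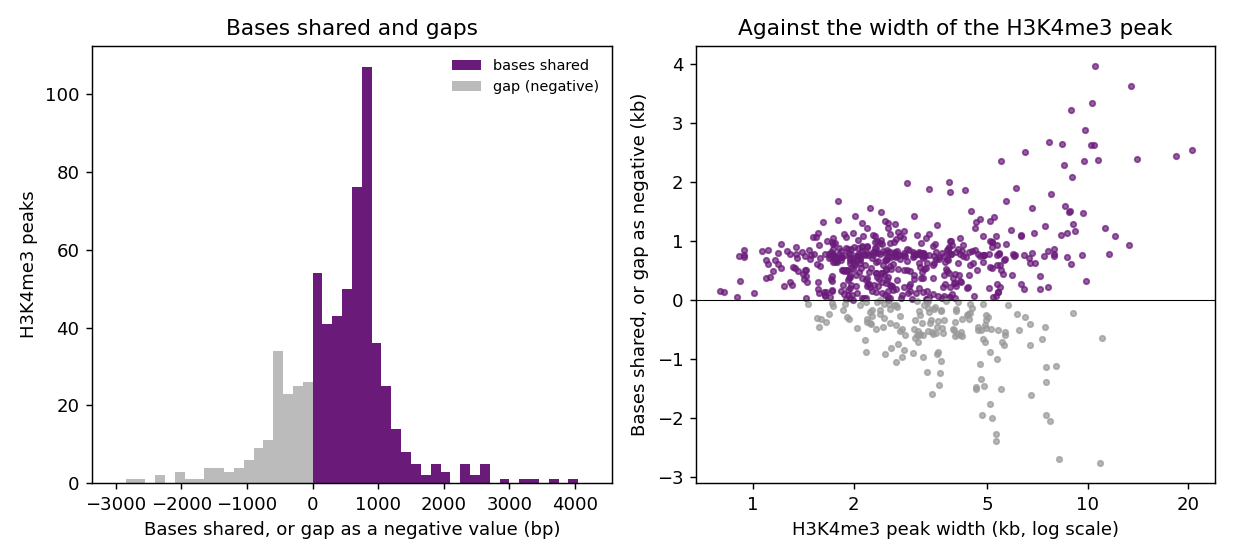
Bases shared by H3K9Ac and H3K27me3 inside each of the 644 co-marked peaks, with gaps as negative values, as a histogram (left) and against H3K4me3 peak width on a log scale (right). Each point is 1 peak, and the 486 that share bases cluster near the median of 724 bp, while the gaps of the other 158 reach 2772 bp.

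Part of this sharing follows from how much of the peak each mark filled. The 2 covers summed to more than the width of the H3K4me3 peak in 239 of the 644 (37.1%), and such covers must share bases. In the other 405, where the marks could have lain apart, 247 (61.0%, 56.0% to 65.8%) shared bases all the same. Counted over bases, 15.5% of the sequence in co-marked peaks lay under both marks, 35.2% under H3K27me3 only, 17.0% under H3K9Ac only and 32.3% under neither. H3K27me3 covered 47.6% of acetylated bases and 52.1% of the other bases of the same peaks. Peak by peak, H3K27me3 cover was lower on the acetylated bases in 310, higher in 269 and equal in 65. The median cover over the 644 peaks was 50.8% on acetylated and 51.2% on other bases. Over all 644, acetylated stretches thus carried about as much H3K27me3 as the rest of the peak. In the 405 whose covers could lie apart, H3K27me3 covered less of the acetylated bases (28.7%) than of the others (39.9%). Those 405 were chosen by the sum of the same 2 covers, which leaves out peaks where both are large. That choice can itself produce such a difference over pooled bases, so no avoidance between the marks can be read from it.

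Sharing was most frequent in narrow peaks. The co-marked peaks were divided by width into 4 classes of 161. In the narrowest class, 794 to 2085 bp wide, 148 of 161 (91.9%) held shared bases, and in 109 the covers had to meet. The share was 77.6% from 2094 to 2939 bp, 64.6% from 2945 to 4398 bp and 67.7% from 4415 to 20504 bp. The shared stretch was of similar length throughout, with medians of 661.5, 693, 690.5 and 831 bp from narrow to wide, so it fell from 36.8% to 14.3% of the peak. Bases under both marks were 33.3% of the narrowest class and 11.5% of the widest. In the third class, H3K27me3 covered 35.9% of the acetylated bases and 52.5% of the others, the widest separation of the 4 classes, and in the narrowest the order was reversed (65.3% and 62.6%).

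**Figure D2:**
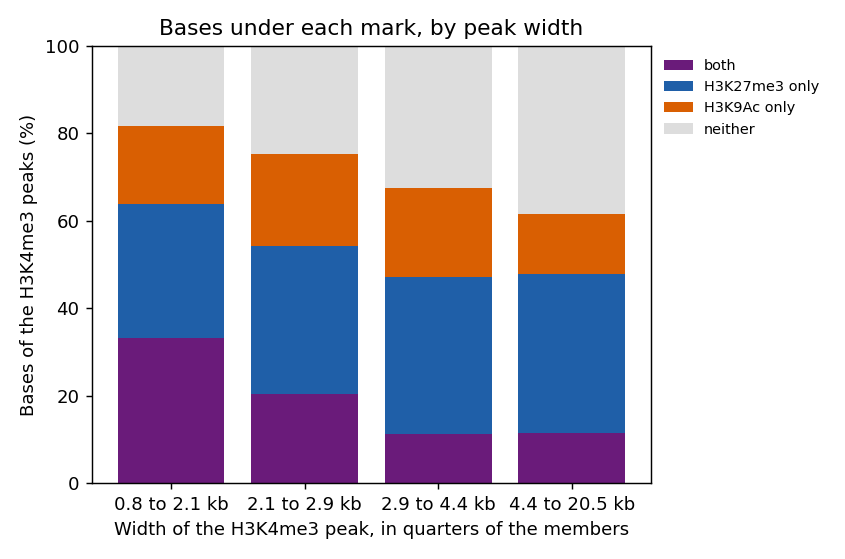
Percentage of bases of co-marked H3K4me3 peaks under both marks, H3K27me3 only, H3K9Ac only or neither, in 4 width classes of 161 peaks. The part under both falls from 33.3% in the narrowest class to 11.5% in the widest, while the part under H3K27me3 only stays between 30.7% and 36.4%.

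The strength of the Polycomb peak went with sharing, and the strength of the acetyl peak did not. In 4 equal classes by the score of the strongest H3K27me3 peak met, 62.1%, 72.7%, 79.5% and 87.6% of co-marked peaks held shared bases. H3K27me3 covered a median of 29.3% of the H3K4me3 peak in the lowest of these classes and 88.3% in the highest, and the number whose covers had to meet rose from 29 to 108. Part of the rise is thus covers that had to meet, and sharing without them was not compared across these classes. In 4 such classes by H3K9Ac score the shares were 73.9%, 76.4%, 78.3% and 73.3%. By H3K4me3 score the lowest class stood apart, with 91.3% against 71.4%, 68.3% and 70.8%. H3K4me3 score and width were closely tied (Spearman rho 0.87 across the 644 peaks), as they were in peaks with H3K9Ac alone (0.86) and with H3K27me3 alone (0.87). The H3K9Ac and H3K27me3 scores were almost unrelated across co-marked peaks (rho -0.10), and so were the percentages covered by each (rho 0.01). These correlations are across peaks of single lists that share libraries and the same H3K4me3 width.

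Within the H3K4me3 peak, acetylation was centred nearer the middle than H3K27me3, most of all where the marks shared no base. Among the 454 co-marked peaks with exactly 1 peak of each mark, the centre of the acetylated stretch lay a median of 23.6% of the way from the middle of the H3K4me3 peak to its edge, and that of H3K27me3 42.0%. In the 325 that shared bases these medians were 21.6% and 30.0%, and in the 129 that did not 34.4% and 68.5%. Acetylation was centred nearer the middle in 278 of the 454 (61.2%, 56.6% to 65.7%). H3K27me3 ran off 1 edge in 253 (55.7%), off both edges in 61 (13.4%) and off neither in 140. H3K9Ac stayed clear of both edges in 412 (90.7%). In peaks with H3K27me3 alone and 1 such peak (2516), the mark was centred at 11.5% and ran off both edges in 39.0%. Centres are those of stretches clipped to the H3K4me3 peak, so a stretch off both edges is centred exactly by construction. In peaks with H3K9Ac alone and 1 such peak (7589), acetylation was centred at 20.6%, close to its place in co-marked peaks. The centres of the 2 marks fell on opposite sides of the middle in 222 of the 454 and on the same side in 171. In the other 61, H3K27me3 ran off both edges, which fixed its centre at the middle. Among the 129 that shared no base, 109 had them on opposite sides, which lying apart within 1 H3K4me3 peak favours by construction.

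**Figure D3:**
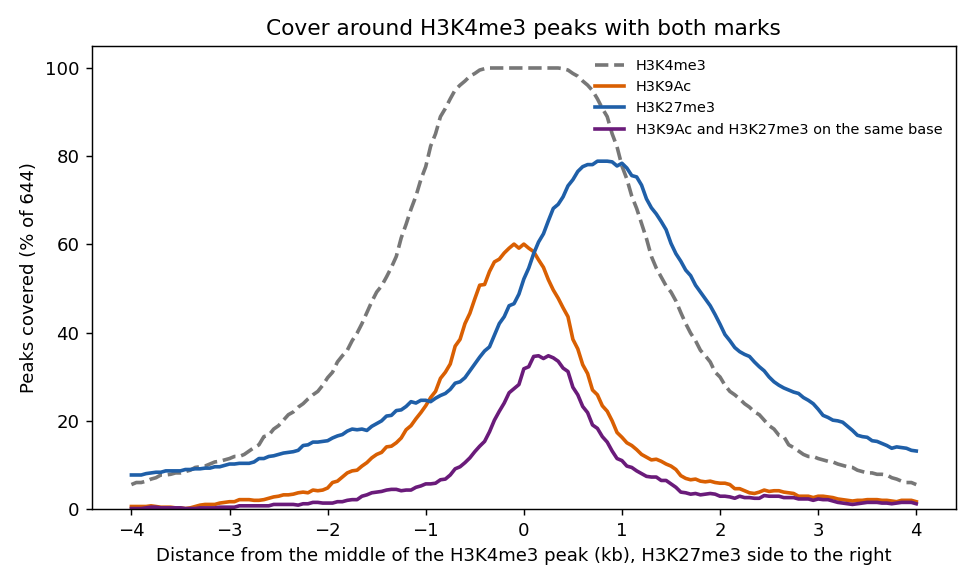
Percentage of the 644 co-marked peaks covered by each mark, against distance from the middle of the H3K4me3 peak in kb, each peak turned so that the centre of its H3K27me3 lies to the right. H3K9Ac reaches 60.1% at -0.1 kb, H3K27me3 78.9% at 0.75 kb, a place that the turning partly fixes, and bases under both 34.8% at 0.15 kb.

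The H3K27me3 peaks involved were 798, 10.7% of the autosomal H3K27me3 list, and the H3K9Ac peaks 764, or 6.44% of theirs. Of these acetyl peaks 92.4% lay wholly within H3K4me3, against 37.1% of the H3K27me3 peaks, whose median part inside H3K4me3 was 84.8%. Of the 764, 531 (69.5%) shared bases with H3K27me3 themselves. The autosomes held 554 H3K9Ac peaks that shared bases with H3K27me3, and 531 of these (95.8%) lay in a co-marked peak. The rule comes close to fixing that share, because most H3K9Ac peaks met H3K4me3 in any case. Of 11858 autosomal H3K9Ac peaks, 9910 met an H3K4me3 peak with H3K9Ac alone and 764 a co-marked one. Not all co-marked peaks were separate cases, because 6 shared an H3K9Ac peak with another co-marked peak and 24 shared an H3K27me3 peak (26 in either way).

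Most co-marked peaks held 1 peak of each mark (454, 71.6% of them with shared bases). Another 104 held 1 H3K9Ac peak and several of H3K27me3 (82.7% with shared bases), 56 the reverse (82.1%) and 30 several of each (29 of 30). In the 134 with at least 2 H3K27me3 peaks, the gaps between those peaks had a median of 444 bp. Acetylation reached into such a gap in 74 (55.2%), and in 41 (30.6%) the middle of an H3K9Ac peak lay there. In the 86 with at least 2 H3K9Ac peaks, H3K27me3 reached into the gap between them in 50 (58.1%).

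Named regions show both arrangements. The most shared bases, 3971, were in chr4:308288590-308299136, a peak of 10547 bp with 5 H3K9Ac and 3 H3K27me3 peaks. Its main H3K27me3 peak, chr4:308290862-308296748 (score 682), contained 3 of the acetyl peaks whole, the strongest being chr4:308293871-308295320 (score 171). In chr5:171595452-171608965, 3632 of 3688 acetylated bases lay under H3K27me3, and both marks were confined to the upper part of the 13514 bp peak, from 171601645 onward. In chr2:62965117-62975428, a single H3K27me3 peak of 9390 bp (score 1358) held 3 acetyl peaks entirely, for 3347 shared bases. These 3 regions were chosen as those with most shared bases, and in all 3 most acetylated bases lay under H3K27me3.

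The 3 regions chosen for the longest gaps had, by that choice, the opposite arrangement. In chr2:510667604-510678486, acetylation at 510673807-510674665 (score 55.8) was 2772 bp away from the H3K27me3 peak at 510677438-510679812 (score 202), which ran off the upper edge. In chr2:52175356-52183566 the gap was 2691 bp and the H3K27me3 peak, 6068 bp long with a score of 693, lay mostly outside H3K4me3. In chr5:83782950-83788277 it was 2392 bp. All 3 had 1 peak of each mark, H3K27me3 at the upper edge, and acetyl scores between 52.4 and 59.1, near the lowest score of the H3K9Ac list (50.01). Low acetyl scores were not particular to long gaps. Over all co-marked peaks the lower quartile was 57.3 and the median 67.7, and where acetylation lay wholly inside H3K27me3 the median was 62.4.

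**Figure D4:**
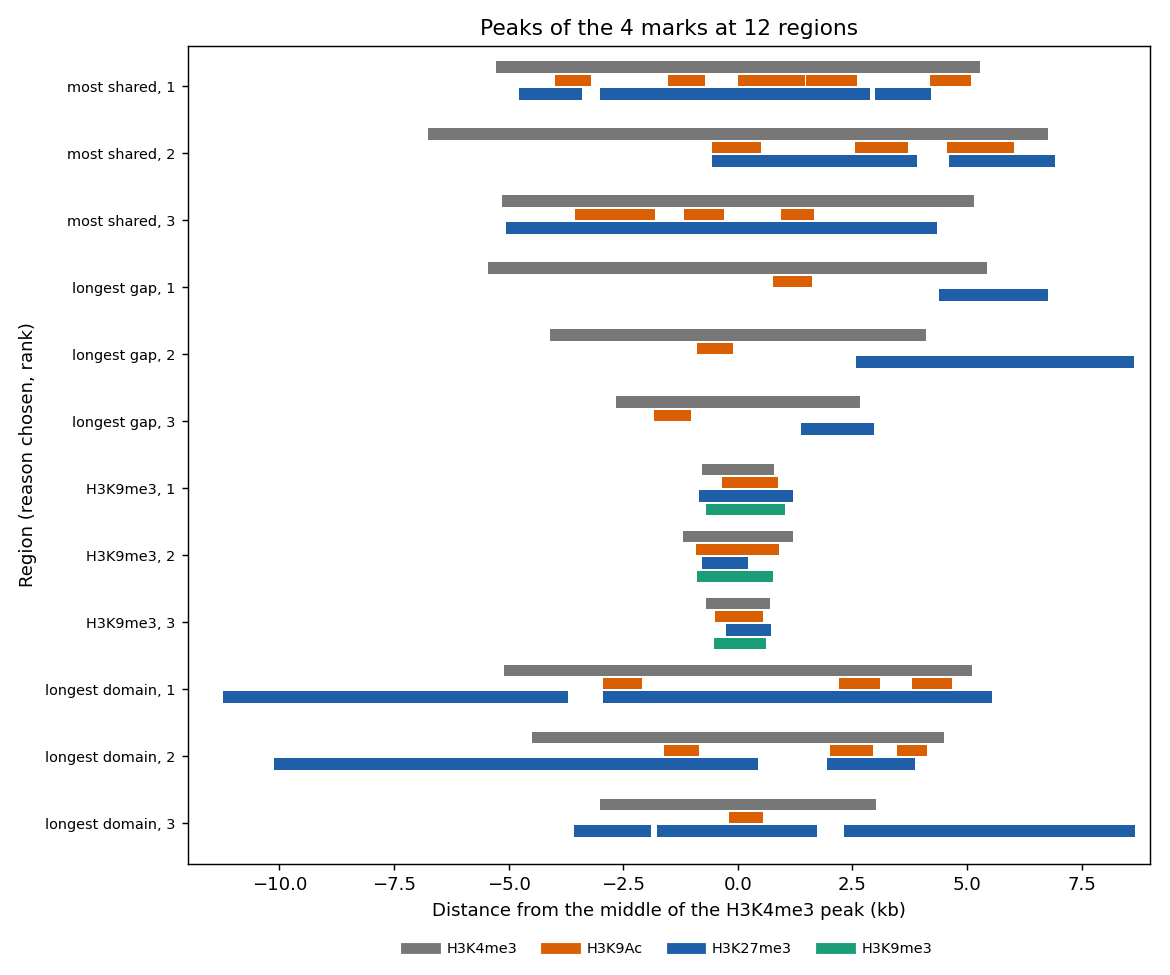
Peaks of the 4 marks at 12 regions, drawn to scale against distance in kb from the middle of the H3K4me3 peak, with 3 regions for each reason of choice. Acetyl bars lie over H3K27me3 bars in the regions with most shared bases, 3971, 3632 and 3347, and stand clear of them in the regions with gaps of 2772, 2691 and 2392 bp.

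The highest H3K4me3 score, 3175, belonged to chr5:127464400-127478480, with 3 H3K9Ac and 5 H3K27me3 peaks and 2383 shared bases. In chr3:215690805-215704115 (score 3158) H3K27me3 covered 94.8% of the peak and the single acetyl peak, 933 bp at 215699285-215700217, lay wholly inside it. The widest, chr1:133705873-133726376, measured 20504 bp and held 8 H3K9Ac peaks, the most of any co-marked peak, over 48.5% of its length. Its 3 H3K27me3 peaks lay at its lower end, up to 133710914, and the strongest acetyl peak, 3485 bp at 133720857-133724341 (score 313), was far from them. The next widest, chr1:624942298-624960718, had 5 H3K9Ac and 6 H3K27me3 peaks interspersed along it, with 2436 shared bases. The region chr5:195761950-195774021 also had 5 acetyl peaks, of which the first (1081 bp) lay whole in its only H3K27me3 peak. In chr5:222907042-222915742, 5 H3K27me3 peaks covered 91.6% and a single acetyl peak lay under the first of them.

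Co-marked peaks were wider and stronger than H3K4me3 peaks with H3K27me3 alone or with neither mark. Against peaks with H3K9Ac alone they had a similar median width and lower scores. Their median width was 2942 bp (2722 to 3132 bp), against 2752 bp with H3K9Ac alone, 1759 bp with H3K27me3 alone and 1502 bp with neither. Of the 644, 122 (18.9%) were wider than 5 kb, against 4.86% of all autosomal H3K4me3 peaks, and a wide peak has more room to meet 2 marks. Their median H3K4me3 score was 658 (600.1 to 712), below the 809 of peaks with H3K9Ac alone and above the 193 of those with H3K27me3 alone. In each of the 4 width classes the score was lower than with H3K9Ac alone, with medians of 233 against 255, 548 against 725, 802 against 1133 and 1599 against 1810. It exceeded that of peaks with H3K27me3 alone in each, where the medians were 123, 376, 573 and 1032. The classes were cut at the quartiles of co-marked peaks, and the first and last are open-ended, so widths inside a class were not matched.

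**Figure D5:**
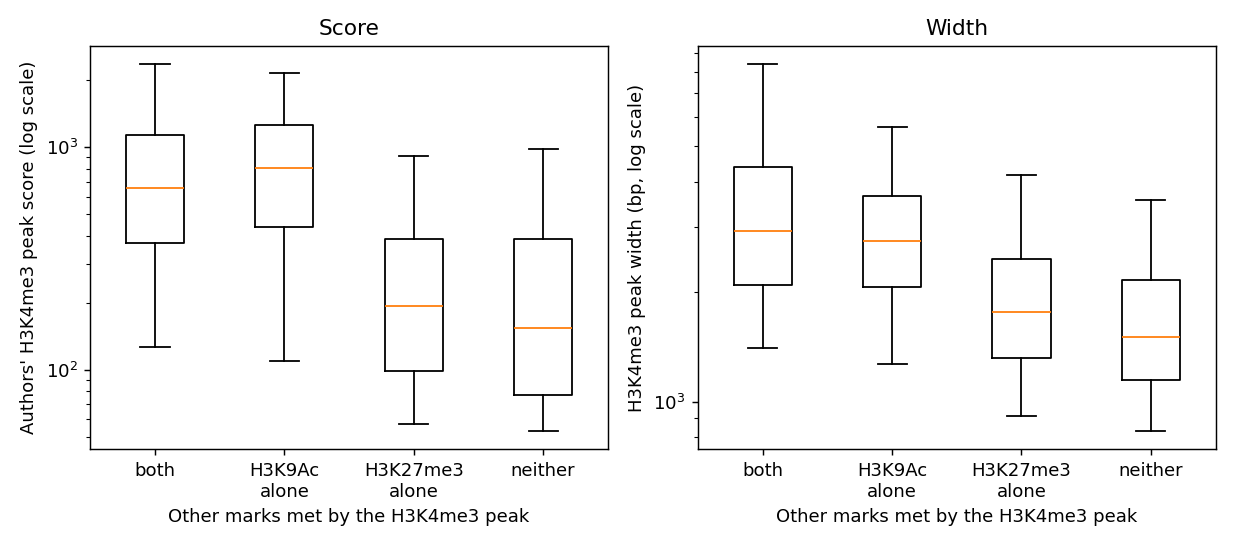
H3K4me3 score (left, the authors' value) and width in bp (right) of autosomal H3K4me3 peaks by the other marks met, on log axes, with boxes from the 25th to the 75th percentile, the median as a line and whiskers at the 5th and 95th percentiles. Peaks with both marks have the highest median width, 2942 bp, and a median score of 658 between the 809 of H3K9Ac alone and the 193 of H3K27me3 alone.

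Both partner marks had lower scores in co-marked peaks than where each stood alone, and within classes of H3K4me3 width both covered fewer bases. The strongest H3K9Ac peak met had a median score of 67.7, against 100.4 with H3K9Ac alone, and the acetylated stretch a median of 925.5 bp against 1210 bp. The strongest H3K27me3 peak met had a median score of 137, against 237 with H3K27me3 alone, while the stretch it covered was of like length overall (1285 against 1258 bp). Single H3K9Ac peaks measured 876 bp against 1089 bp, and single H3K27me3 peaks 1530 bp against 1954.5 bp. Within each class of H3K4me3 width, acetylated stretches were shorter in co-marked peaks, at 792 against 899 bp, 943 against 1226 bp, 931 against 1423 bp and 1331 against 1916 bp. H3K27me3 stretches were shorter in each class too, at 976 against 1108 bp, 1189 against 1650 bp, 1373 against 2158 bp and 2419 against 4004 bp. H3K27me3 was less frequent at acetylated than at other H3K4me3 peaks within every width class, at 6.65% against 21.3%, 5.70% against 27.9%, 5.85% against 28.9% and 11.9% against 39.6%.

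The layouts differed in the strength of their Polycomb peaks. Where acetylation lay wholly inside H3K27me3, the median H3K27me3 score was 432 and its cover 94.1% of the peak, and the median H3K9Ac score was 62.4. Staggered peaks had medians of 114, 46.0% and 72.9, and peaks with H3K27me3 on 1 side 91.1, 25.9% and 67.1. The 16 peaks with H3K27me3 inside H3K9Ac had a median H3K27me3 score of 56.8 and a median H3K9Ac score of 114. Side-by-side peaks as a whole were wider than those with shared bases, with medians of 3538 and 2653.5 bp.

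Long Polycomb domains, here H3K27me3 peaks less than 5 kb apart joined into stretches of more than 20 kb, held 59 co-marked peaks (9.16%, 7.05% to 11.7%), against 16.7% of peaks with H3K27me3 alone and 2.59% of all autosomal H3K4me3 peaks. They lay in 38 of the 196 such autosomal domains. Inside these domains 56 of 59 (94.9%) held shared bases and in 44 the acetylation lay wholly inside H3K27me3. Outside, 430 of 585 (73.5%) held shared bases. H3K27me3 covered a median of 94.8% of the co-marked peak inside the domains and 44.8% outside. Inside them there was thus little room for the marks to lie apart. The longest domain with a co-marked peak ran over 163 kb, chr8:297273075-297435740, with 17 H3K27me3 and 11 H3K4me3 peaks, of which 2 were co-marked. These were chr8:297398154-297408361 and chr8:297414883-297423875, with 3 acetyl peaks each, none scoring above 73.9, and 2624 and 2079 shared bases. The next, chr2:201099206-201246008, held 16 H3K4me3 peaks and 1 co-marked one, chr2:201113080-201119109, with 751 shared bases under an acetyl peak scoring 54.4.

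Co-marked peaks were scattered along the autosomes with a few local groups. They fell in 541 bins of 1 Mb, of which 468 held 1 and 6 held at least 4. The nearest other H3K4me3 peak lay a median of 26.4 kb away and was itself co-marked in 54 cases (8.39%), against 2.88% over all autosomal H3K4me3 peaks. It carried H3K27me3 alone in 25.3% (13.7% over all peaks) and H3K9Ac alone in 30.4% (39.3% over all). For peaks with H3K27me3 alone, the nearest peak carried H3K27me3 alone in 40.9%, H3K9Ac alone in 21.7% and both in 5.23%. For peaks with H3K9Ac alone these shares were 7.68%, 48.2% and 2.20%. Some co-marked neighbours were not separate cases, since 26 of the 644 shared an H3K9Ac or H3K27me3 peak with another co-marked peak. The fullest bin, singled out after its values were seen, began at 122 Mb on chromosome 1 and held 7 co-marked peaks among 19 H3K4me3 peaks. A pair of neighbours there, chr1:122647638-122649256 and chr1:122651083-122653197, were covered entirely by H3K27me3 with a score of 3100, yet had acetyl scores of 92.3 and 88.0 and low H3K4me3 scores of 160 and 128. The largest of the bin, chr1:122713711-122724176, was 10466 bp wide with an H3K4me3 score of 2449, and its 2628 acetylated bases all lay under H3K27me3.

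H3K9me3, the mark of constitutive heterochromatin, was met by 12 co-marked peaks (1.86%, 0.966% to 3.23%). The share was 1.63% of peaks with H3K27me3 alone (49 of 3003), 0.275% of those with H3K9Ac alone and 0.484% of all autosomal H3K4me3 peaks. All 12 were among those with shared bases, and in 8 the H3K9me3 peak covered some of the shared bases. Their H3K4me3 scores ran from 58.4 to 2620 with a median of 418, and 4 were under 100. The strongest H3K9me3 peak, score 381, lay in chr7:340961-342519, where the peaks of all 4 marks overlapped over most of the 1559 bp. There the H3K4me3 score was only 62.4, the H3K27me3 score 301 and the H3K9Ac score 113, and all 1132 acetylated bases were under H3K27me3. Peaks of all 4 marks also lay over each other in chr2:515436892-515439302, chr1:438338812-438340211 and chr4:182067727-182068871, with H3K9me3 scores of 184, 137 and 108 and H3K4me3 scores of 319, 144 and 58.4. In the fifth by H3K9me3 score (87.0), chr6:4546519-4551137, the H3K4me3 peak was strong (1057) and the H3K9me3 peak began inside the acetylated stretch and ran past it.

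Co-marked peaks made up between 2.38% (chromosome 2, 100 peaks) and 4.48% (chromosome 7, 52 peaks) of the H3K4me3 peaks of each autosome. The part with shared bases lay between 71.2% on chromosome 7 and 83.0% on chromosome 2. On X, which in females includes a silenced copy, 44 H3K4me3 peaks met both marks by the same rule. Of these 40 (90.9%, 78.3% to 97.5%) held shared bases, and 24 had to, because the covers summed to more than the width. Where the marks could have lain apart, 16 of 20 shared bases (80.0%, 56.3% to 94.3%), an interval that overlaps the autosomal one. H3K27me3 covered 72.5% of the acetylated bases of these X-linked peaks and 58.8% of their other bases. On the autosomes the 2 values were close, at 47.6% and 52.1%. No test of the difference between X and autosomes was made.

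The overlap rule had few borderline cases. The smallest overlaps were 16 bp of H3K27me3 in chr4:241836749-241839220, 19 bp of H3K27me3 in chr8:72779015-72782606 and 27 bp of H3K9Ac in chr1:133732001-133735100, and each of these 3 peaks held the marks apart. Just outside, chr2:385498310-385499337 missed an H3K9Ac peak by 11 bp, chr1:500598911-500600301 an H3K27me3 peak by 13 bp and chr3:358851968-358856456 an H3K27me3 peak by 22 bp. Peaks with H3K9Ac alone had an H3K27me3 peak within 1 kb of their edge in 54 of 8713 cases (0.620%), and lay a median of 243 kb from the nearest. Peaks with H3K27me3 alone had an H3K9Ac peak within 1 kb in 47 of 3003 cases (1.57%).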

How the data were processed

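Per the submitters' processing notes, CASAVA 1.7, Bowtie 1.1.2 and MACS 1.0.1 were used. Settings, control, genome build and how the 2 libraries of a mark became 1 list: not given in the sources used here. The deposited lists give each peak's position and the authors' score, which is used only within a list. No listed score is below 50, and the value 3100 recurs in the H3K4me3 and H3K27me3 lists.

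H3K4me3 peaks were divided by overlap of at least 1 bp, and H3K9Ac and H3K27me3 peaks were clipped to the H3K4me3 peak before shared bases, gaps and covers were counted. Intervals are exact binomial ones, and those of medians use order statistics. With no replicate values, no test was made. Regions were named by rank (highest score, widest, most shared bases, longest gap, most peaks, H3K9me3, longest domains, nearest the overlap threshold). The peaks and these rules were chosen with earlier results of these data known. A gene table of another assembly was not used, so no gene names or sequences are given. The code was tested on simulated layouts. Tables were made with pandas 2.3.3 and numpy 2.4.6, intervals with scipy 1.17.1 and plots with matplotlib 3.10.9, under Python 3.11.15.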

Additional observations from a re-analysis of the deposited data

Results flagged for a closer look

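Sequence not placed on a chromosome was left out of the comparisons, yet 20 of its 1401 H3K4me3 peaks (1.43%) met both H3K9Ac and H3K27me3, a lower share than the 2.92% of autosomal H3K4me3 peaks. They are listed because no comparison used them, and any count above the 0.214% that a count of 0 allows is listed. Of these 20, 18 held bases under both marks, and their median width was 2368 bp.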

How the results depend on the processing

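Of 129 values under alternatives, all but 24 stayed within the exact 95% interval of the reported value or, for the number of co-marked peaks, within 1.5 times of it, among them all 72 with 1 chromosome left out. With the top-scoring 50% of each list there were 91 co-marked peaks, a median shared stretch of 1008.5 bp, 95.7% of side-by-side peaks with H3K27me3 on 1 side, a median score of 1186, a median width of 4465 bp and 17.6% in domains over 20 kb. An overlap of 50% of the shorter peak gave 79.2% with shared bases. Peaks with 1 H3K9Ac and 1 H3K27me3 peak gave 71.6% with shared bases, a median of 682 bp, 100% of side-by-side peaks with H3K27me3 on 1 side (fixed by having 1 peak of each, so no alternative), a score of 558, a width of 2531 bp and 5.95% in long domains. X gave 44 peaks, 90.9% with shared bases, a median of 791.5 bp, a gap of 350.5 bp over 4 peaks, 100% on 1 side, a score of 531, a width of 2597.5 bp, 6.82% with H3K9me3 and 29.5% in long domains. Trimming 100 bp gave 67.1% and 558 bp. The cause of these shifts was not tested. Whole peaks in place of clipped ones and joined H3K27me3 peaks moved no value beyond its interval. With whole peaks, however, the share with shared bases, the gap and the side cannot change, so these are no alternatives although counted among the 129. Only the median shared stretch could change there, and it was 737 bp. No paired analysis was possible because each mark has 1 list for both libraries, and for the same reason no library could be left out. The depth behind the lists is unknown.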
